A study of Mus musculus with 16 samples.

Results

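Stably broad H3K27ac domains are long stretches of acetylated chromatin that 3T3-L1 cells carried both before and after adipogenic induction. They were chosen by island length alone: an island of at least 10000 bp in empty-vector cells at 48 h (replicate A, the anchor list) was kept if it overlapped an island of at least 10000 bp in replicate B at 48 h and in both replicates at 0 h. The rule found 299 domains among the 31292 islands of the anchor list, of which 1493 reached 10000 bp. Lengths in the 4 empty-vector lists are therefore a description and were not tested, whereas the SETD5-vector, SETD5-V5, endogenous SETD5 and H3K4me1 lists took no part in the choice. For 17 islands of the anchor list the shortest of the 4 lengths was exactly 10000 bp, just inside the rule, and for 15 it was 9800 bp, just outside.

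3T3-L1 is a mouse preadipocyte line that turns into fat cells when confluent cultures receive insulin, dexamethasone and isobutylmethylxanthine (MDI). Cells carried either an empty retrovirus or one that encodes V5-tagged SETD5 from a weak viral promoter as a stable line, and H3K27ac was profiled in each at 0 h (day 0) and 48 h (day 2) of MDI with 2 replicates, A and B. SETD5-V5 was profiled with an anti-V5 antibody at 0 h and 6 h with 2 replicates, endogenous SETD5 at 0 h and 6 h, in cells labelled with no virus and with an antibody to the protein itself, with 1 library each, and H3K4me1 at 0 h and 48 h with 1 library each. The labels name no SETD5 virus for replicate A of the V5 ChIP although its title does, and they name the virus for H3K4me1 where the study's figures show untransduced cells. With 2 libraries against 2, the exact permutation test cannot give a p below 0.333, so no difference between groups of libraries reported here could pass a threshold of 0.05.

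H3K27ac, acetylation of histone H3 at lysine 27, marks active enhancers and promoters, and clusters of strong enhancers that run together over many kilobases are often found at genes that define a cell's identity. H3K4me1 marks enhancers whether or not they are active. SETD5 is a SET domain protein that works with the NCoR-HDAC3 corepressor, which removes acetyl groups from histones. The comparison asked here is how far these long domains, already present in the preadipocyte, kept their length in cells with added SETD5, and how much of them lay under SETD5.

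Each list gives islands, that is, runs of enriched windows joined across short gaps, with no read counts. A length depends on where enrichment crossed the caller's threshold and on whether gaps were bridged, and the depth of an island is unknown. The 8 H3K27ac lists held between 31292 and 39949 islands, and those of at least 10000 bp numbered 749 to 1493 in empty-vector lists and 676 to 1178 in SETD5-vector lists. SETD5-V5 lists grew from 16054 to 35573 islands in replicate A and from 6666 to 27220 in replicate B between 0 h and 6 h, and the endogenous SETD5 lists held 2132 and 3293. Of 24 marker genes of other lineages, 0 had a start site under an island of the anchor list, against 24 of 28 preadipocyte genes, 23 of 26 adipocyte genes and 10785 of all 22380 protein-coding genes.

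A small class of domains had to be set apart before anything else, since their bases lay under islands whatever the antibody. In 18 of the 299 domains at least 60% of the bases were covered in each of the 16 lists, and in the other 281 the least covered list reached at most 49.1%. These 18 were as follows: 3 neighbouring domains of 91800, 170400 and 123200 bp on chromosome 10 with start sites of Cpsf6, Cpm and Mdm2, others on the same chromosome near Lyz2, Lin7a and Ifng, 3 at Cwc22, 1 at Sfi1, 3 close together on chromosome 8, 1 at the start of the chromosome 9 assembly, 1 on chromosome X, the mitochondrial genome, and 2 on chromosome 19, of which 1 holds Malat1 and Neat1 and the other lies at Ahnak. Of the 18, 5 consisted mainly of repeated sequence, with at least 50% and up to 92.2% of sampled 32-base words found more than once in the genome, whereas the other 13 did not, among them the Cpm domain with 8.69%. The Cpm domain was 170400 or 170600 bp long in all 8 H3K27ac lists. What gives these regions islands in every list was not tested, because no input library was analysed here. Values below are for all 299 domains, and the main ones are also given for the 281 others.

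The domains were not spread evenly: 35 lay on chromosome 2, 31 on chromosome 11 and 28 on chromosome 6, and 79 neighbouring pairs were within 100 kb of each other, so several belong to the same locus. They covered 7.03 Mb in all, with a median length of 17600 bp in the anchor list (quartiles 13600 and 25800 bp, range 10000 to 170400 bp). In 150 domains (50.2%) at least 1 start site of a protein-coding gene lay within the domain, against a background of 43.1% of all islands of at least 10000 bp in the anchor list and 32.7% of all its islands. Another 68 overlapped the body of a protein-coding gene but held no start site, and 81 were intergenic. A comparison set of newly broad domains (498, broad in both replicates at 48 h but not in either at 0 h) held start sites in 42.0%, and a set of collapsing domains (256, broad at 0 h and not at 48 h) in 24.6%. Domains without a start site lay a median of 40868 bp from the nearest, and 35 lay more than 100 kb away.

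A set of 5 windows, picked after their values were seen, shows sequence that lay under SETD5. In 3 of these domains the longest island was much shorter in SETD5-vector than in empty-vector cells at 48 h (Pparg, Col6a3 and Ppp1r3c). The other 2 are from domains whose mean length ratio was near 1 (Nr2f2 and Fstl1). At Fstl1 that mean came from opposite replicates, with 24000 bp (empty vector) and 16000 bp (SETD5) in A and 12000 and 19200 bp in B. For each domain the 150 bp window with most matches to 3 motifs was taken among bases that islands of both SETD5-V5 replicates covered at 6 h. Coordinates are mm9 (NCBIM37), plus strand, and capitals mark matches on either strand to TGANTCA (the AP-1 consensus), GGAATG (TEAD) and TTGCNNAA (C/EBP).
Pparg, intron, chr6:115412941-115413090: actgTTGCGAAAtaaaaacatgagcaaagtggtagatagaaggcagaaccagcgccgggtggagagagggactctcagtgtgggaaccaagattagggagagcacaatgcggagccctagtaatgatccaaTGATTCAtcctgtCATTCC
Col6a3, outside protein-coding genes, chr1:92636559-92636708: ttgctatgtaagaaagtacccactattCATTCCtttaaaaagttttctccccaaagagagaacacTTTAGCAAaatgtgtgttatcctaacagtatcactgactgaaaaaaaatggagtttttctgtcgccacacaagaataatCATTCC
Ppp1r3c, outside protein-coding genes, chr19:36815235-36815384: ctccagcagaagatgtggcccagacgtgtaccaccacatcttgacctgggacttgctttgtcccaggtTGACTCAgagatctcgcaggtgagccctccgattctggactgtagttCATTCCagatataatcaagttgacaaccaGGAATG
Nr2f2, intron, chr7:77500700-77500849: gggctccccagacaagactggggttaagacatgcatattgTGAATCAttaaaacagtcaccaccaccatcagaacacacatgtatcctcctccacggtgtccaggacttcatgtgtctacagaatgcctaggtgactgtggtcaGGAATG
Fstl1, intron, chr16:37809865-37810014: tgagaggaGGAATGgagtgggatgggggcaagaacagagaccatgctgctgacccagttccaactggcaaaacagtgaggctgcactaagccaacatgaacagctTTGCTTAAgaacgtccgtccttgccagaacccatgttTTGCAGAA

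The Pparg window held 1 match to each motif. Those shown hold 2 or 3 matches, whereas the best windows of the Nov and Prrx1 domains, not printed, held 1 each. Windows that hold all 3 were rare in general. They made up 0.0150% of 46750 windows of 150 bp tiled over the domains and 0.0310% of 799668 tiled over all islands of the anchor list. Each window shown, however, was picked as the best in the part of its domain under islands of both SETD5-V5 replicates at 6 h. Single motifs were about as frequent in the domains as in all islands: TGANTCA occurred in 4.61% of domain windows against 5.06% over all islands, GGAATG in 8.33% against 8.18%, and TTGCNNAA in 6.27% against 6.73%. Set against flanks of the same length on either side, TGANTCA was denser inside in 142 of 281 domains and sparser in 117, GGAATG denser in 148 and sparser in 119, and TTGCNNAA denser in 156 and sparser in 109. Base composition differed more, with the GC content higher inside than in the flanks in 207 of 281 domains (median 47.2% inside and 45.9% in the flanks).

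Among the genes at these domains were mesenchymal transcription factors, matrix proteins and TEAD and YAP genes. In all, 192 of 22380 protein-coding genes (0.858%) had a start site in a domain, and 739 had one in any island of at least 10000 bp of the anchor list. The 192 include 13 of the mitochondrial genome and 12 of the chromosome 9 domain, both covered in every list. Among genes that started in such long islands, the domains held 4 of 8 mesenchymal, 10 of 19 matrix, 6 of 8 TEAD and YAP and 2 of 5 preadipocyte genes, against 192 of 739. Of 38 mesenchymal transcription factor genes, 4 did (10.5%): Prrx1 and Nfib, factors of connective tissue progenitors, and Snai1 and Zeb2, repressors known from epithelial-mesenchymal transition. Of 56 extracellular matrix genes, 10 did (17.9%), among them Col6a1 (a collagen VI chain), Col15a1, the small proteoglycans Dcn and Lum, the collagen cross-linker Loxl1, Fbln2, and Serpinh1, the collagen chaperone. Of 27 genes for TEAD and YAP factors and their targets, 6 did (22.2%): Amotl2, Vgll3, Vgll4, F3, Arhgef17 and Fstl1. The preadipocyte list gave Nr2f2, which restrains adipogenesis, and Btg1, 2 of 28.

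Of 24 adipogenic transcription factor genes, 3 had a start site in a stably broad domain: Cebpb, which acts early in adipogenesis, its relative Cebpg, and Rxra, the partner of PPARγ. The newly broad set held 5 of the 24. None of 26 genes of the mature adipocyte and none of 20 glucocorticoid responsive genes started in a stably broad domain, and 8 of each did in a newly broad one. Over all protein-coding genes the share was 0.858% in stably broad and 1.09% in newly broad domains, so a count of 0 in lists of this size is close to that background. Among genes that started in an anchor island of at least 10000 bp, stably broad domains held 3 of 11 adipogenic factor genes. They held 0 of 11 adipocyte and 0 of 11 glucocorticoid responsive genes, against 192 of 739 genes in all. Smaller numbers came from the Wnt list (Lrp5 and Tcf7l2, 2 of 31), the actin list (Myh9 and Lmna, 2 of 36), the cell cycle list (Cdkn1b and Mdm2, 2 of 28), the cytokine and growth factor list (Cxcl5 and Fgf7, 2 of 31), the TGF-β and BMP list (Tgfbr3, 1 of 35) and the non-coding RNA list (Malat1 and Neat1, 2 of 10). Among genes that started in an anchor island of at least 10000 bp, the domains held 2 of 5 Wnt, 2 of 4 actin and 2 of 8 cell cycle genes. They held 2 of 5 cytokine, 1 of 7 TGF-β and BMP and 2 of 2 non-coding RNA genes, so some of these shares are as high as those of the lists above. Mdm2 and the single domain that holds both Malat1 and Neat1 are of the class covered in every list. No member of the AP-1 (16 genes), Kruppel-like factor (17), corepressor complex (9), ribosomal protein (33) or other-lineage (24) lists was found. Of these lists, 2, 4, 1, 1 and 0 genes started in such a long island. The lists were drawn up with earlier results of these data in view, so the shares are descriptions.

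In SETD5-vector cells most of these domains were still long. At 48 h, 253 of 299 (84.6%, replicate A) and 262 (87.6%, replicate B) overlapped an island of at least 10000 bp, on average 86.1% ± 2.13 (SD, n = 2). Without the 18 domains covered in every list the shares were 84.0% and 87.5%. The background was lower: of all empty-vector islands of at least 10000 bp at 48 h, 42.9% (A) and 62.6% (B) overlapped such an island in the SETD5-vector list of the same letter. A background island had to be long in a single list and a domain in 4 lists. The choice itself therefore favours a higher share for the domains. Among newly broad domains the shares were 42.0% and 56.2%. At 0 h, 231 domains (77.3%) and 256 (85.6%) were broad in SETD5-vector replicates A and B, where the backgrounds were 44.5% and 69.8%. Every domain overlapped an H3K27ac island of some length in all 4 SETD5-vector lists.

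**Figure D1:**
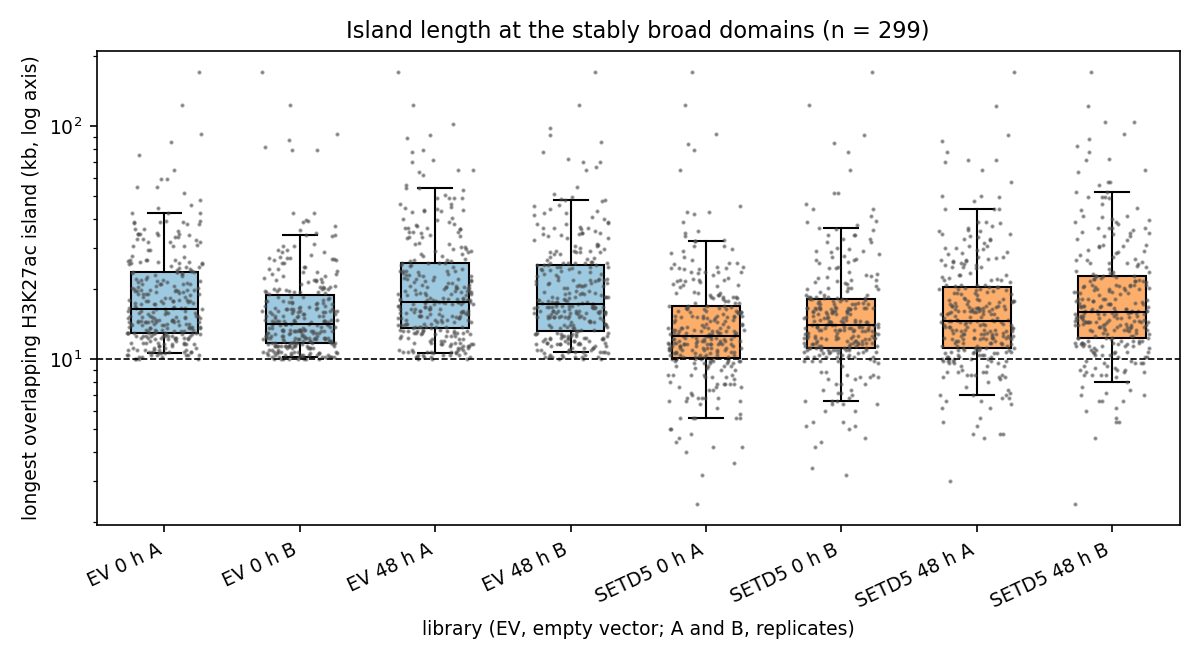
Length in kb (log axis) of the longest H3K27ac island that overlaps each of the 299 stably broad domains, in 4 empty-vector (EV, blue) and 4 SETD5-vector (orange) libraries. Boxes give the median and quartiles, whiskers the 5th and 95th percentiles, points the domains and the dashed line 10 kb, below which only SETD5-vector libraries have points because the empty-vector lists chose the domains.

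The median length of the longest overlapping island in SETD5-vector cells was 12600 bp (A) and 14000 bp (B) at 0 h and 14600 bp (A) and 16000 bp (B) at 48 h. The 48 h libraries were both above the 0 h libraries, by 2000 bp on average (two-sided exact permutation test, p = 0.333, the smallest 2 against 2 can give). In the empty-vector lists that chose the domains, the medians were 16400 and 14200 bp at 0 h and 17600 and 17200 bp at 48 h. Per domain, the island at 48 h was shorter with SETD5 than with the empty vector in both replicates for 134 domains (44.8%) and longer in both for 50 (16.7%), and the median ratio was 0.897 (A) and 0.977 (B). At 0 h, before MDI, 136 domains were shorter in both and 39 longer in both.

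Because empty-vector lengths chose the domains, an empty-vector list has an advantage in any such comparison, and the domains were therefore also chosen on a single letter and read in the other. Chosen on replicate A (520 domains), 82.1% were broad at 48 h in empty-vector replicate B and 75.2% in SETD5-vector replicate B. Chosen on replicate B (367 domains), 89.4% were broad in empty-vector replicate A and 79.3% in SETD5-vector replicate A. The SETD5 value was thus the lower one in both readings at 48 h, but both readings still chose domains on empty-vector cells. At 0 h the SETD5 value was lower in replicate A (71.9% against 89.4%) and higher in replicate B (69.0% against 65.0%), so the replicates differed in direction there. The letter A lists also differ from the letter B lists as a whole, with fewer broad islands in SETD5-vector than in empty-vector cells at 0 h in A (676 and 1222) and more in B (942 and 749).

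The same rule applied to the 4 SETD5-vector lists gave 271 domains, of which 189 (69.7%) overlapped a stably broad domain of empty-vector cells. Seen from the other side, 182 of the 299 (60.9%) overlapped a domain chosen on SETD5-vector lists. Of the 271, 88.2% (A) and 87.8% (B) overlapped an island of at least 10000 bp in empty-vector cells at 48 h. At 0 h the empty-vector shares were 92.3% and 81.5%. The shares at 48 h are thus about as high when SETD5-vector lists make the choice as when empty-vector lists do. In all 4 SETD5-vector lists, 181 of the 299 were broad, and in none of them 5, which lie at or nearest Eea1, Abra, Nov, Kcne2 and Galnt9.

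Domains that lengthened during MDI in one empty-vector replicate were read in the other letter. Domains at least 2-fold longer at 48 h than at 0 h in empty-vector replicate B (42 domains) went from a median of 18100 to 32600 bp in empty-vector replicate A, and from 12100 to 24800 bp in SETD5-vector replicate A. Chosen on replicate A (32 domains), they went from 12800 to 32600 bp in empty-vector replicate B and from 13600 to 31700 bp in SETD5-vector replicate B. The median gain was 1.78-fold with the empty vector and 2.01-fold with SETD5 in the first case, and 2.28-fold and 2.47-fold in the second. Across the 281 domains outside the class covered in every list, the log2 gain in empty-vector replicate A and that in SETD5-vector replicate B, which share no library, had a Pearson r of 0.520 (Spearman 0.420), and the reverse pair 0.516 (0.522). The points share the genome and the caller, and neighbouring domains are not independent.

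The Tgfbr3 domain, at the gene for a TGF-β co-receptor, was the longest outside the class covered in every list. Its island measured 18400 and 16400 bp at 0 h and 102200 and 98000 bp at 48 h in empty-vector replicates A and B. In SETD5-vector cells it measured 18200 and 15600 bp at 0 h and 57800 and 82400 bp at 48 h. Both SETD5-vector lengths at 48 h lay between the 0 h and the 48 h lengths of empty-vector cells. In bases, SETD5-vector islands covered 96.1% and 98.0% of the domain at 48 h, in 4 islands each. Empty-vector replicate B covered 98.4% in 3 islands. At Vmp1, a gene of autophagy, the island went from 24400 and 27400 bp to 71400 and 67000 bp with the empty vector, and from 20600 and 14000 bp to 72000 and 43800 bp with SETD5. At Ksr1, a scaffold of the Ras-MAP kinase pathway, the island rose from 13400 and 10600 bp to 65000 and 72200 bp, and with SETD5 from 7400 and 13200 bp to 32600 and 72600 bp. The letters differed in length at both loci, since 1 SETD5-vector replicate fell short of the empty-vector length and the other did not. Coverage at 48 h with SETD5 was 100% and 98.3% at Vmp1 and 94.5% and 98.8% at Ksr1. In empty-vector replicate B it was 99.2% and 99.1% at these loci.

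Other domains ranged from nearly constant to variable. The domain of 88800 bp at Pcdh17, a protocadherin gene, measured between 84400 and 88800 bp in all 8 H3K27ac lists, and no H3K4me1 island overlapped it at either time. At Vgll4, a cofactor of TEAD, lengths ranged from 21600 to 64000 bp. At Nr2f2 all 8 values lay between 18200 and 19400 bp, and at Tcf7l2, a factor of Wnt signalling, between 13200 and 15400 bp. The Prrx1 island rose from 10600 and 12000 bp to 19600 and 15200 bp with the empty vector and from 11000 and 10400 bp to 20000 and 19400 bp with SETD5, so at 48 h SETD5-vector replicate B lay within the empty-vector range and replicate A just above it. Snai1 and Zeb2 had islands of 11200 to 20200 bp and 13000 to 19800 bp over the 8 lists.

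At a few domains the longest island was much shorter with SETD5. The 6 with the lowest ratio of SETD5-vector to empty-vector length at 48 h were at Col6a3, Nov, Kcne2 (2 domains), Ppp1r3c and Pparg. Pparg encodes the nuclear receptor that directs adipogenesis, and the domain of 49400 bp overlapped the gene (86.3% of its bases), 25717 bp from its nearest start site. Its longest island measured 38600 and 21400 bp at 0 h and 49400 and 29200 bp at 48 h in empty-vector replicates A and B, and 13800 and 21000 bp at 0 h and 6800 and 15600 bp at 48 h with SETD5. The 4 empty-vector lengths were thus all above the 4 SETD5-vector lengths, but at 0 h in replicate B only just, with 21400 against 21000 bp. With time the longest island lengthened with the empty vector and shortened with SETD5. The share of domain bases under H3K27ac islands did not fall with SETD5. It went from 69.2% to 71.3% in A, in 6 and then 8 islands, and from 76.9% to 82.2% in B, in 4 and then 5. In empty-vector replicate B it went from 83.0% to 88.3%, in 3 islands at each time.

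The domain 26590 bp from Col6a3, a collagen VI chain gene, measured 20400 and 15000 bp, then 31400 and 19400 bp at 48 h with the empty vector. With SETD5 it measured 14800 and 12000 bp, then 5200 and 6200 bp. At Ppp1r3c, which encodes a subunit that targets a phosphatase to glycogen, the island went from 15600 and 14000 bp to 20000 and 18400 bp with the empty vector and from 9600 and 12400 bp to 4800 and 5600 bp with SETD5. At both loci the 48 h SETD5-vector lengths were below every other length. Coverage by H3K27ac islands with SETD5 changed less, from 58.0% and 72.6% to 58.0% and 68.2% at Col6a3. At Ppp1r3c it went from 58% and 62% to 56% and 67%. Empty-vector replicate B went from 58.6% to 78.3% at Col6a3 and from 70% to 76% at Ppp1r3c. The SETD5-vector islands at 48 h numbered 6 and 6 at Col6a3 and 3 and 4 at Ppp1r3c, against 1 and 2 at each with the empty vector. The domain 38544 bp from Nov, a matricellular protein of the CCN family, measured 7000 and 8400 bp at 0 h and 6600 and 5400 bp at 48 h with SETD5, against 11400 to 38200 bp in the 4 empty-vector lists.

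Near Kcne2, a potassium channel subunit, 4 stably broad domains followed each other on chromosome 16. The closest, 29800 bp long and 3034 bp from the start site, had SETD5-vector islands of 5600 and 11000 bp at 0 h and 7400 and 6600 bp at 48 h, all below the empty-vector range of 17000 to 29800 bp. The second of the 6 lowest there measured 2400 to 5400 bp with SETD5 and 11200 to 13800 bp with the empty vector. Since the domains were chosen for being long in empty-vector cells, the gap between vectors at these loci is partly a result of the choice and was given no test.

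At the other end were Pbk, Rassf2, Synpo and Egfr. The Rassf2 island, at a gene of a Ras-association domain protein, measured 37200 and 27600 bp at 48 h with the empty vector and 72000 and 71400 bp with SETD5, although it started at 12200 and 15400 bp and 14000 and 17400 bp. The other 3 rested mostly on 1 replicate: at the domain 50474 bp from Pbk, which lies within Scara5, the empty-vector islands were 21200 and 22200 bp and the SETD5-vector islands 29800 and 104000 bp. At the Synpo domain of 11600 bp the SETD5-vector islands were 10000 and 49600 bp, and at the domain within Egfr the empty-vector islands were 12000 and 33200 bp against 44000 and 36800 bp. Across the 281 domains the log2 ratio of replicate A and that of replicate B had a Pearson r of 0.427 (Spearman 0.406).

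**Figure D2:**
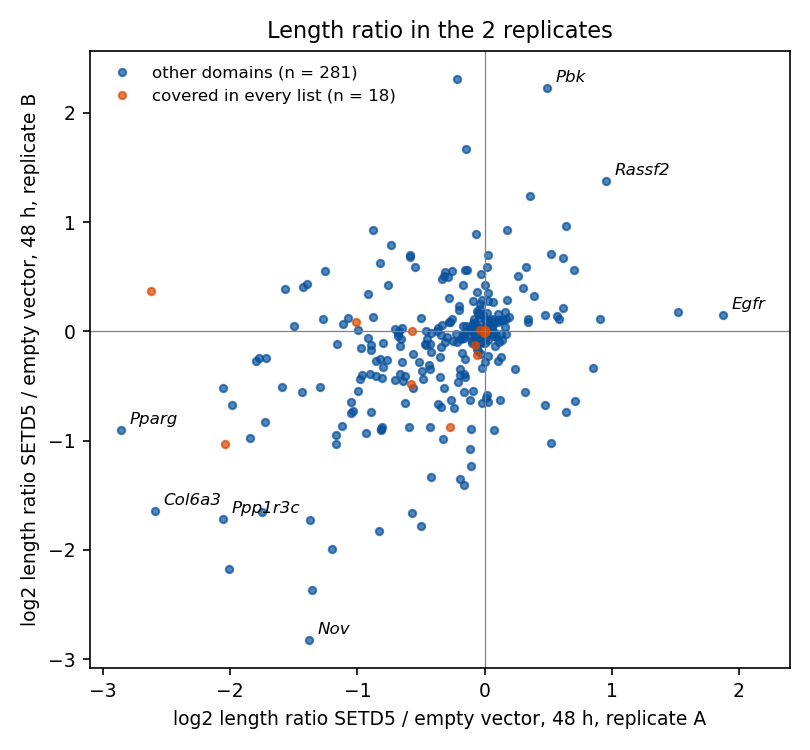
Log2 ratio of island length at 48 h, SETD5-vector over empty-vector cells, in replicate A (x axis) and replicate B (y axis), for each stably broad domain. Domains covered in every list are orange and the 281 others blue, and most points lie near 0 with Pparg, Col6a3, Ppp1r3c and Nov at the lower left and Rassf2 at the upper right.

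**Figure D3:**
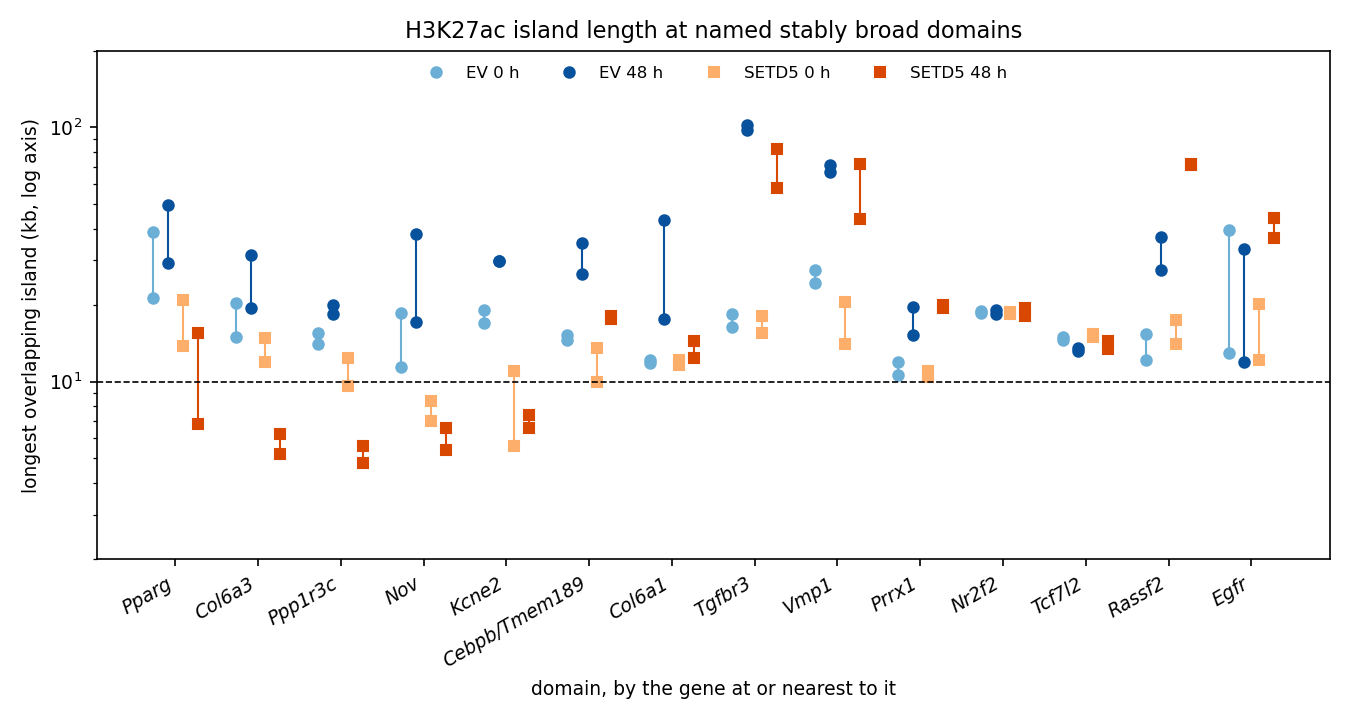
Length in kb (log axis) of the longest H3K27ac island at 14 named domains, in empty-vector (EV) and SETD5-vector cells at 0 h and 48 h, with the 2 replicates of each group joined by a line and the 10 kb rule dashed. Pparg, Col6a3, Ppp1r3c, Nov and Kcne2 have their 48 h SETD5 points below both 48 h EV points, Nr2f2 and Tcf7l2 have nearly the same length throughout, and Tgfbr3 and Vmp1 grow in both kinds of cell.

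The adipogenic factor loci varied. The domain with the start sites of Cebpb and Tmem189 measured 15200 and 14600 bp at 0 h and 35000 and 26600 bp at 48 h with the empty vector, and 10000 and 13600 bp, then 17600 and 18200 bp with SETD5. It rose in each replicate of both, and the 48 h values did not overlap between vectors. A second domain, 61679 bp from Tmem189 and picked after its values were seen, reached 43600 and 43200 bp with the empty vector and 44400 and 52200 bp with SETD5 at 48 h, with the SETD5-vector values the higher ones. The domain of Cebpg and Pepd measured 43000 and 48800 bp at 48 h with the empty vector and 30000 and 40200 bp with SETD5. At Rxra the 48 h values were 17600 and 19200 bp with the empty vector and 17000 and 21600 bp with SETD5, and the SETD5-vector values lay on either side of the empty-vector ones.

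The matrix genes varied as well. The Col6a1 island went from 12200 and 11800 bp to 43400 and 17600 bp with the empty vector and from 12200 and 11600 bp to 14400 and 12400 bp with SETD5. At Serpinh1, picked after its values were seen, all values lay between 11600 and 13400 bp except the 48 h SETD5-vector islands, which measured 4800 and 8600 bp. Loxl1 islands kept 22800 to 24800 bp in 7 of 8 lists, with 16000 bp in SETD5-vector replicate B at 0 h. At the Dcn domain with its start site, islands went from 55000 and 14400 bp at 0 h to 27800 and 22600 bp at 48 h with the empty vector. With SETD5 they went from 13400 and 15800 bp to 13400 and 14400 bp. H3K27ac islands at 48 h covered 89.9% and 97.8% of the Dcn domain with SETD5 and 88.5% in empty-vector replicate B.

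SETD5-V5 lay over nearly all of these domains. At 6 h, 294 of 299 (98.3%) overlapped an island in replicate A and 290 (96.99%) in replicate B, where 94.8% and 89.3% of all broad islands of the anchor list did. These shares are near the background. At 0 h the overlap was 280 (93.6%, A) and 220 (73.6%, B), against backgrounds of 71.9% and 44.5%. Both replicates had an island over 219 domains at 0 h and over 289 at 6 h, and 14 domains had SETD5-V5 in both 6 h lists but in no 0 h list.

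In bases, SETD5-V5 islands covered 69.8% (A) and 46.2% (B) of the domains at 0 h and 85.8% (A) and 77.3% (B) at 6 h. Coverage was higher at 6 h in each replicate, by 23.5 percentage points on average (two-sided exact permutation test, p = 0.333, the smallest possible), and by 27.1 points in the 281 domains outside the class covered in every list. Over all broad islands of the anchor list coverage went from 48.5% to 76.4% in A and from 25.8% to 65.5% in B, a larger step from a lower start. The SETD5-V5 lists also held more islands at 6 h, and with all 4 held to the same number of highest-scoring islands the rise was 17.2 points. Domain by domain, coverage was higher at 6 h in both replicates in 185 of 299 and lower in both in 11.

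Whole domains could lie under SETD5-V5. In 56 the coverage was 100% in both 6 h replicates, among them the Tcf7l2, Fstl1, Fbln2 and Fgf7 domains. The 5 longest of the fully covered domains were all of the class covered in every list: Cpm, Mdm2, the larger chromosome 8 domain, Sfi1 and Cwc22. Coverage of the Pparg domain was 55.9% and 8.9% at 0 h and 84.6% and 81.0% at 6 h. At Col6a3 it was 35.7% and 14.01%, then 57.3% and 56.1%, and at Ppp1r3c 93.0% and 65.0%, then 100% and 87.0%. The Kcne2 domain nearest its start site had 26.8% and 27.5% at 6 h. The domains with the lowest length ratio thus ranged from low to nearly full coverage. Across the 281 domains the coverage at 6 h and the log2 length ratio of the same letter had a Spearman rho of 0.271 in A and 0.153 in B, weak values that are given as a description only. The points share the caller and the anchor list.

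Of the 10 domains that lacked SETD5-V5 in at least 1 replicate at 6 h, 4 lacked it in both: 2 far from Pcdh17 on chromosome 14, at 226431 and 530431 bp, and 2 near Agtr2 on chromosome X. All 4, outside the rule for named domains, were intergenic, had no SETD5-V5 at 0 h either, and had at most 4.42% of their bases under H3K4me1. In SETD5-vector cells at 0 h they measured 2400 to 6200 bp. By 48 h the Agtr2 domain of 20400 bp reached 20000 and 20400 bp. The Rxra domain was covered in replicate A (100% at 0 h and 89.8% at 6 h) and not at all in replicate B at either time.

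**Figure D4:**
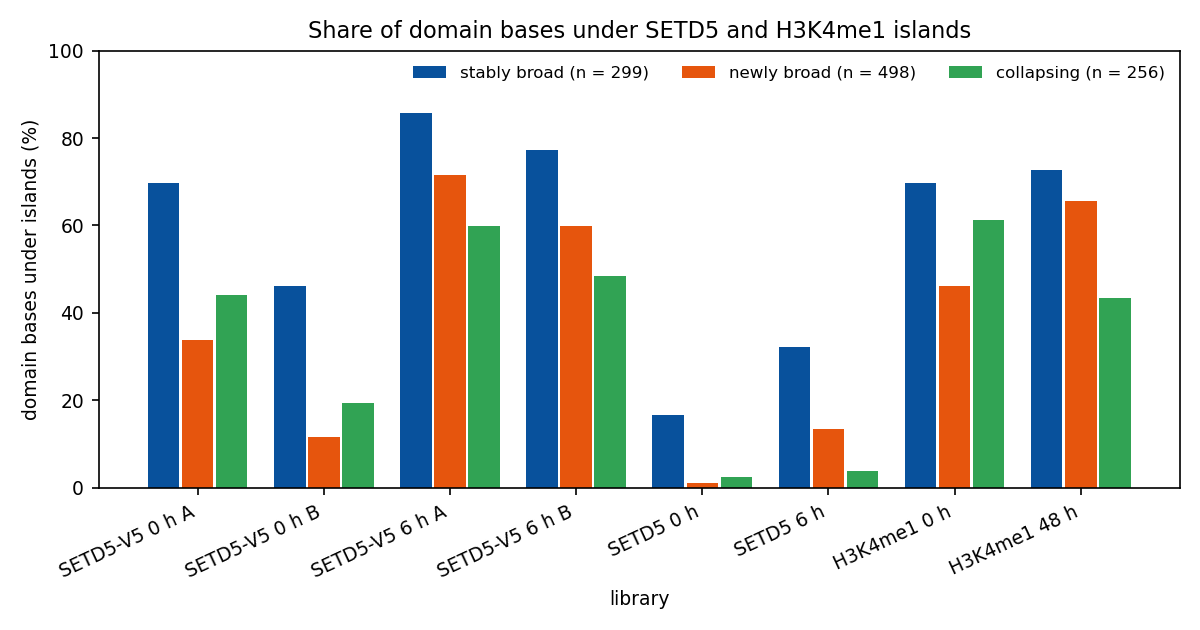
Percent of domain bases under islands of SETD5-V5 (2 replicates per time), endogenous SETD5 and H3K4me1 (1 library per time), for stably broad, newly broad and collapsing domains. Bars are single libraries, so they carry no error, and stably broad domains have the highest bar of the 3 sets in each library. Without the 18 domains covered in every list, the endogenous SETD5 bars of stably broad domains would stand at 4.32% (0 h) and 21.9% (6 h) instead of 16.6% and 32.3%.

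Endogenous SETD5 gave far fewer islands and a narrower view. At 0 h, 68 domains (22.7%) overlapped one and at 6 h 130 (43.5%), against backgrounds of 9.38% and 27.1% of all broad islands of the anchor list. Without the 18 domains covered in every list the counts were 50 of 281 (17.8%) and 112 of 281 (39.9%). Each time has a single library, so the rise has no replicate check. Both times shared 64 domains, 66 were overlapped at 6 h alone and 4 (Slc1a3, Bbox1, F3 and Ptn) at 0 h alone. In the SETD5-V5 lists, 128 of the 130 domains at 6 h had SETD5-V5 in both replicates at 6 h, and 67 of the 68 at 0 h had it in both at 0 h. Over all 299 domains, 289 (96.7%) had it in both at 6 h and 219 (73.2%) in both at 0 h, so the 6 h count is near the share of all domains. The 130 and the 68 include the 18 domains covered in every list.

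Of the 8 domains with endogenous SETD5 at both times that scored highest in the anchor list, 6 were of the class covered in every list: Cpsf6, Cpm, Mdm2, the Malat1 and Neat1 domain, the chromosome 9 domain and the mitochondrial genome. The other two were Vmp1, with 10.9% of its bases covered at 0 h and 19.9% at 6 h, and the domain within Sh3pxd2a, 40868 bp from Neurl1a, with 4.55% and 91.2%. The Tgfbr3 domain was 11.9% covered at 0 h and 100% at 6 h. Coverage of the Pparg domain was 0% at 0 h and 27.5% at 6 h, that of the Ppp1r3c domain 19% and 24%, and the Col6a3, Nov and Kcne2 domains had none at either time. Fstl1, Nr2f2 and Tcf7l2 had 100%, 64.6% and 66.7% at 6 h. Domains with a start site were overlapped more often than those without, 60.7% against 26.2% at 6 h and 34.0% against 11.4% at 0 h, and they were also longer, with medians of 18900 and 16000 bp.

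H3K4me1 islands overlapped 290 domains (96.99%) at 0 h and 287 (96.0%) at 48 h, close to the backgrounds of 92.6% and 95.6%. They were shorter and more broken than the H3K27ac islands, with 2 or more H3K4me1 islands in 82.6% of the domains at 0 h and 74.2% at 48 h. Of the 8 domains without H3K4me1 at either time, 3 held start sites, of Nr2f2, Nfib and Lum, and 5 did not (2 near Agtr2, 2 by Pcdh17, and 1 of 31400 bp on chromosome X). That chromosome X domain, 30016 bp from 4932411N23Rik and picked after its values were seen, measured 29200 to 31400 bp in all 8 H3K27ac lists.

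Coverage was also read by position within the domain. In the middle 20% of the domain length, 95.4% and 96.7% of bases were under H3K27ac islands of SETD5-vector replicates A and B at 48 h, and in the outer 10% at each end 75.3% and 79.5%. In empty-vector replicate B at 48 h these were 98.7% and 83.0%. SETD5-V5 at 6 h covered 90.8% and 82.4% of the middle and 75.6% and 65.8% of the ends, and just outside the edges still 49.9% and 41.1%. The edges come from the anchor list, so any other library falls off towards them.

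**Figure D5:**
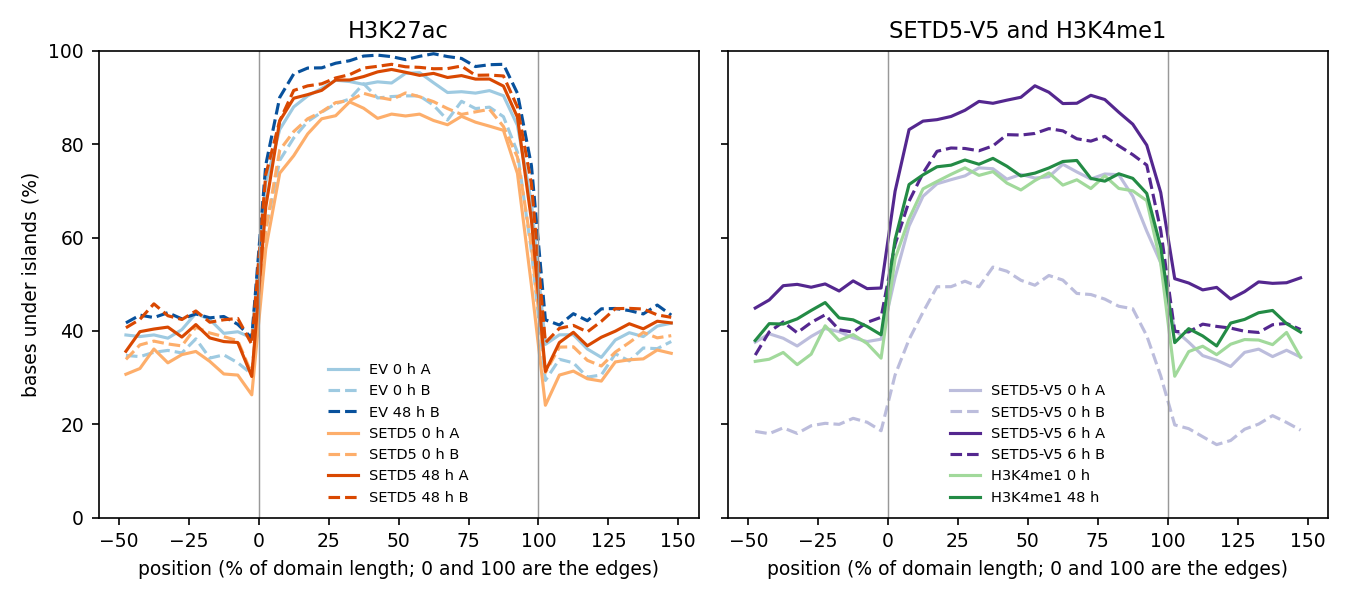
Percent of bases under islands by position in the 299 stably broad domains, from 50% of the length before the domain to 50% after it, for H3K27ac in 7 libraries (left; the anchor list is 100% inside by construction and not drawn) and for SETD5-V5 and H3K4me1 (right). Coverage varies little across the middle in each library, falls at the edges, and is higher for SETD5-V5 at 6 h than at 0 h in both replicates.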

How the data were processed

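H3K27ac, SETD5-V5, endogenous SETD5 and H3K4me1 ChIP-seq of 3T3-L1 cells were analysed as 16 deposited island lists, 1 per library with no pooling. The authors aligned reads by ELAND or Bowtie2 to mm9 before SICER called islands; each deposited list gives chromosome, start, last base and the caller's island score, the one measured value, which was used only to rank islands in the alternatives. Whether an input library entered the calling is not given in the sources used here, and no read counts were analysed, so the depth behind an island is unknown and absence means below the caller's threshold. The study's reporting summary gives more total reads for each SETD5-vector H3K27ac library than for the empty-vector library of the same time and letter.

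Islands were compared with Python 3.11.15, numpy 2.4.6, pandas 2.3.3 and scipy 1.17.1, with any shared base as overlap, and length is that of the longest overlapping island. Base coverage is the share of domain bases under islands of a list. Start sites are those of protein-coding genes in GENCODE on NCBIM37. The share of 32-base words, sampled every 100 bp, that occur more than once in the genome measured repeats. Island finding was tested on simulated lists, in which 150 of 150 planted domains were found.

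The SETD5-vector lengths and SETD5-V5 coverage were compared between times by a two-sided exact permutation test over libraries, 2 against 2. Nothing in the labels says that A and B share a batch, and p-values measure only the spread between these libraries. Endogenous SETD5 and H3K4me1 have 1 library per time and no test. The members and gene lists were chosen with earlier results of these data known. Domains named with values were the 10 longest, the 6 lowest and 4 highest in length ratio, the 5 with most SETD5-V5, up to 8 with endogenous SETD5 at both times, and up to 4 per gene list; others are marked as picked later. A domain takes the name of the gene whose start site it holds, or of the nearest. Alternatives changed the length threshold, overlap, score, number of islands, merging, anchor list, chromosomes, replicates and annotation. The sequences of 3 further windows are not reported here.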

Additional observations from a re-analysis of the deposited data

Results flagged for a closer look

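At 7 named domains the island length moved one way between 0 h and 48 h in both empty-vector replicates and the other way in both SETD5-vector replicates. The difference was not tested. The longest island of the Pparg domain changed by a mean of 9300 bp with the empty vector and -6200 bp with SETD5. At Col6a3 the changes were 7700 bp and -7700 bp, at Ppp1r3c 4400 bp and -5800 bp, and at Amotl2 4900 bp and -7400 bp. The opposite order was seen at Cxcl5, with -2000 bp for the empty vector and 1600 bp for SETD5, and at Loxl1, with -600 bp and 4300 bp. At Mdm2, in the class covered in every list, the changes were 200 bp and -600 bp. Some means hid unequal replicates, and island starts lie on a grid of 200 bp. In A and B, Loxl1 changed by 200 and 8400 bp with SETD5. With the empty vector Cxcl5 changed by -3800 and -200 bp and Amotl2 by 9200 and 600 bp. At Pparg, Col6a3 and Ppp1r3c every replicate changed by at least 4400 bp in its direction. These loci were named for a low ratio of SETD5-vector to empty-vector length at 48 h, a choice that itself favours moves in these directions. Over all 299 domains, 16 lengthened with the empty vector and shortened with SETD5 in every replicate, 13 did the opposite, 88 lengthened in all 4 pairs and 30 shortened in all 4.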

How the results depend on the processing

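Of 84 alternative values for 6 results, 68 were called the same, 16 moved and 0 reversed. The number of domains had to stay within 1.5 times the count, and the share still broad within its SD. The endogenous SETD5 and start site shares had to stay within their 95% interval. For the length and SETD5-V5 differences only the sign had to be kept, as it was in all 14 and 15 alternatives, whatever their size. The number of domains was 602 at a threshold of 8000 bp, 91 at 15000 bp and 496 with islands within 1000 bp merged, and 367 to 520 when 1 replicate was left out. The share still broad in SETD5-vector cells at 48 h was 82.4% at 15000 bp and 88.7% with merging. It was 70.2 to 83.4% with 1 replicate left out, 75.2% for domains chosen on replicate A and read in B, and 79.3% for the reverse. Under the rule applied to the SETD5-vector lists it was not computed, since it would be complete by construction. The share overlapped by endogenous SETD5 at 6 h was 36.05% at 8000 bp, 51.6% at 15000 bp, 32.8% with islands above the median score, 36.8% with equal numbers of islands and 37.5% with merging. With gene bodies in place of start sites, 72.9% of the domains were called. The median length difference between 48 h and 0 h in SETD5-vector cells ranged from 1150 bp (threshold of 8000 bp, where the libraries of the 2 times overlapped, exact permutation p = 0.667) to 2650 bp, and the SETD5-V5 difference from 17.2 to 32.3 points, the highest without replicate A and 17.5 without replicate B. Leaving out domains covered in every list was chosen after seeing the data and changed no direction. With the replicate letter as a block (replicate block), the differences were 2000 bp and 23.5 points, with an exact permutation p of 0.5, the smallest that 2 pairs allow. Differences between A and B correlated between times at -0.09 (SETD5-vector), 0.10 (empty vector) and 0.17 (SETD5-V5), and with 2 pairs and no label on batches the letters were not treated as pairing the libraries. Depth per island is unknown, which limits any statement on absence.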
